A study of Mus musculus with 12 samples.

Results

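Krüppel-like factor (KLF) genes were followed here through the accessible chromatin around them. The 10 genes were Klf1, Klf2, Klf3, Klf4, Klf6, Klf7, Klf9, Klf10, Klf11 and Klf13. A region was taken as theirs when the gene was the protein-coding gene it overlapped, or the nearest one within 50000 bases, on the mouse build GRCm38. This gave 23 regions, out of 16028 regions in the union of 6 peak lists and 14813 that could be assigned to any protein-coding gene. All 10 genes had at least 1 region. Regions were assigned to these genes by position alone, not by the change between conditions. The genes themselves were chosen with earlier results of these data known, so that each had a region is not a result.

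ATAC-seq, which cuts and tags accessible DNA with the transposase Tn5, was run on ER-Hoxa9-Lys-GFP cells of C57BL/6 origin. These are cultured mouse myeloid progenitors in which Hoxa9, a homeobox factor that blocks differentiation, is fused to the estrogen receptor and works only with estradiol (E2), and a GFP reporter marks lysozyme expression. All groups came from this line and grew in medium with stem cell factor. There were 12 libraries in 6 groups of 2. The first group had E2 throughout and the last went 120 h without it. In between, E2 was taken away for 24, 40, 56 or 72 h and then given again for 96, 80, 64 or 48 h, so a longer absence always came with a shorter return and the pair was treated as 1 variable. Per the labels' protocol, nuclei of a preparation were divided between a pair of transposition reactions, and no source used here says whether the libraries of a group came from separate cultures. Each group had 1 peak list, so there was no spread between replicates and no test between groups. The lists held 7987 to 13165 peaks after cleaning, and carried neither a score nor a read count. Depth was therefore unknown, and a region not called in a list may be less accessible or only below the calling threshold there.

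KLF proteins bind GC-rich DNA, mostly GC boxes and CACCC boxes, through tandem zinc fingers at their C-terminus, a domain they share with the SP factors. They fall into groups by their partners. Klf1, Klf2, Klf4, Klf6 and Klf7 belong to a group that mostly activates transcription with histone acetyltransferases. Klf3 recruits the corepressor CtBP, and Klf9, Klf10, Klf11 and Klf13 recruit the corepressor Sin3a. In blood cells, Klf1 drives red cell genes, Klf4 promotes monocyte differentiation, and Klf2 holds back inflammatory activation of myeloid cells.

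Sequence was read at gene starts alone, and none was read under the regions away from them. The RefSeq windows of GRCm38.p6, which run from 250 bases before to 50 bases after the start, were found for 9 members, and Klf10 had none in the table. Those of Klf2, Klf7, Klf13 and Klf1 are shown because they stand for the different outcomes at a start. Klf2 (chr8:72318812-72319111, plus strand) was covered by a peak in all 6 lists. Klf7 (chr1:64121340-64121639, minus strand) was covered in part in 4 lists, Klf13 (chr7:63938866-63939165, minus strand) in full in 3, and Klf1 (chr8:84901732-84902031, plus strand) in none. Capitals mark GC boxes (GGGCGG) and CACCC boxes (CACCC) on either strand, each read from 5′ to 3′ along the gene.
Klf2: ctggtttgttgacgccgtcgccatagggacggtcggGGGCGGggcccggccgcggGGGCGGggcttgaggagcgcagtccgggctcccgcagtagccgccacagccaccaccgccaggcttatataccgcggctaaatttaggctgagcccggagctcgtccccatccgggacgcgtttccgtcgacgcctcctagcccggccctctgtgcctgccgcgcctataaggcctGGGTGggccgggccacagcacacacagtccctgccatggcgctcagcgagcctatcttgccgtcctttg
Klf7: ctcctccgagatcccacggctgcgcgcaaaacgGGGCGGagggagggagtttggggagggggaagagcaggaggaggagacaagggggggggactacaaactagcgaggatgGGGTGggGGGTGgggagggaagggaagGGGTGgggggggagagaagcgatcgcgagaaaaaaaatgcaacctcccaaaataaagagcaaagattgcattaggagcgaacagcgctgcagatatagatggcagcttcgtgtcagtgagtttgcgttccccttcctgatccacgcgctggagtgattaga
Klf13: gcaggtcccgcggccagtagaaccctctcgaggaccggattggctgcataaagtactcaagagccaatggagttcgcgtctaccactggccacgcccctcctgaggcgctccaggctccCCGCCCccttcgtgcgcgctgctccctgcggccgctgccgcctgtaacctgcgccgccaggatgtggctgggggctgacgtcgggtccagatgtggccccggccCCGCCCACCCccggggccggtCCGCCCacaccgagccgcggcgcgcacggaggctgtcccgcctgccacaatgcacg
Klf1: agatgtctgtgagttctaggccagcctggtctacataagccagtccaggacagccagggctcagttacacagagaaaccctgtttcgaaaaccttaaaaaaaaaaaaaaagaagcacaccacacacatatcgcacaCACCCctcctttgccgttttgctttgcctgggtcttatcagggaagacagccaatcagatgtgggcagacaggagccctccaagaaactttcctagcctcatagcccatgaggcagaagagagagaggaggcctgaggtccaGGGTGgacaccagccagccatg

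The GC box was in 7 of the 9 windows, all except those of Klf1 and Klf9. Among 4671 start windows of protein-coding genes with a peak in every list, 75.1% held it, and among the 12568 windows with a peak in none, 29.2% did. A CACCC box was in 6 of the 9, against 61.9% and 57.6% of those windows. A CCAAT box (CCAAT, either strand) was in 5 of the 9, 4 times in the window of Klf6 and 3 times in that of Klf9, against 45.9% and 36.8%. The motif GATAA, bound by GATA factors, was found on either strand only in the window of Klf1, and in 12.5% and 28.7% of the other windows. In Klf13 and Klf3, 1 base was shared by a GC box and a CACCC box. The windows had a median GC content of 69.3%, and that of Klf1 was lowest at 51.3% with 3 CpG pairs, against medians of 63.0% and 24 in windows with a peak in every list. These matches describe the letters only.

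Between continuous E2 and 120 h without it, 9 KLF regions were lost (called in continuous E2 and not at 120 h), 9 were kept (called in both), 1 was gained (called at 120 h and not in continuous E2) and 4 were called at neither end point. Over all 14813 assigned regions the shares were 40.2% lost, 42.4% kept, 9.04% gained and 8.4% at neither end point. The KLF shares of 39.1% lost and 39.1% kept lay near that background, so the family as a whole did not stand out in either class. Of the 10 genes, 7 had a lost region, 8 had a kept one, and only Klf2 had a gained one. Fewer regions were called at 120 h than in continuous E2 for 7 genes. No share over all genes is given beside these counts per gene, which also depend on how many regions a gene has. The balance moved when peaks were chosen by width. With each list shortened to as many of its widest peaks as the shortest list holds, 5 KLF regions were lost and 4 gained. This setting was counted for KLF regions alone, so it has no share over all regions beside it.

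Position separated the classes within the family. Regions within 1000 bases of a gene's start or end, here called boundary regions, made up 12 of the 23, and 53.5% of all assigned regions. Of these 12, 8 were kept, 1 was lost, 1 was gained and 2 were at neither end point. The shares over all boundary regions were 61.3%, 25.7%, 6.72% and 6.37% in the same order. Of the 11 regions farther away, 8 were lost, 1 was kept and 2 were at neither end point, where 57.0% of all such regions were lost, 20.6% kept, 11.7% gained and 10.7% at neither end point. The direction was the one seen across the genome. With 1 list per group and 23 regions, whether the KLF genes differ from other genes was not tested.

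**Figure D1:**
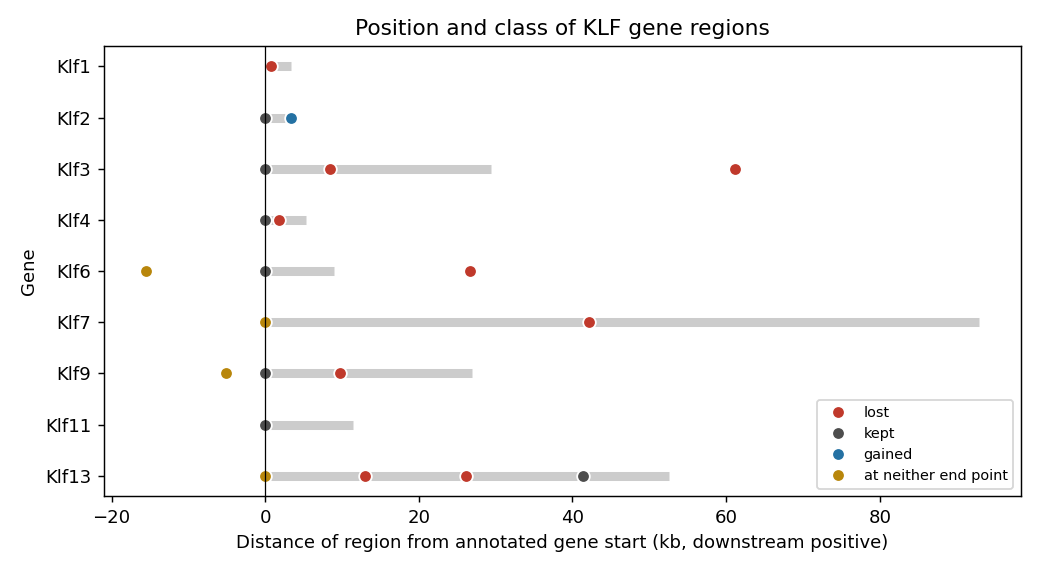
Position of the regions of 9 KLF genes, as the distance in kb from the annotated gene start to the nearest edge of the region (0 where the region holds the start), with 1 row per gene and the gene body as a grey bar. Point colours give the class by the end points. Kept regions sit at the starts, apart from 1 inside Klf13, and lost regions sit downstream of the starts. Klf10 is not drawn because the tables used give no strand for it.

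Klf2, a factor that keeps lymphocytes quiescent and restrains inflammatory genes in myeloid cells, had its start covered throughout. The peak there (chromosome 8, 72318663 to 72319367) measured 705 bases in continuous E2, then 632, 480, 433 and 457 bases in the add-back lists of 24, 40, 56 and 72 h, and 421 bases at 120 h. It was the narrowest of the kept KLF regions in every list. The only gained region of the family lay 803 bases beyond the other end of Klf2 (72322457 to 72322785), 3395 bases downstream of the start. It measured 218 bases after 72 h and 329 bases at 120 h, and was called in no list with shorter withdrawal. Both widths were below the median of their list, 594 bases after 72 h and 581 bases at 120 h. In the lists where the gained region was not called, the nearest peak was the one at the Klf2 start, 3089 to 3252 bases away. The pattern of the gained region, 72 and 120 h alone, was shared by 178 assigned regions.

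Klf4, known for monocyte differentiation and as a reprogramming factor, kept the peak over its start (chromosome 4, 55532246 to 55533044). Its widths were 745 bases in continuous E2, 723, 771, 675 and 764 bases in the add-back lists in order of withdrawal, and 692 bases at 120 h. No other kept KLF region narrowed less. A further region inside the gene, 1800 bases downstream of the start (55530229 to 55530675), was called in continuous E2 alone, with 447 bases.

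Klf1, the master regulator of red cell genes, had no peak over its start in any list. Its only region lay 746 bases downstream, inside the gene (chromosome 8, 84902728 to 84903681), and was lost. It measured 952 bases in continuous E2, 833 bases after 24 h, 612 bases after 40 h and 462 bases after 72 h, and was not called after 56 h or at 120 h. It was the only lost boundary region of the family. Among erythroid and megakaryocyte marker genes, no region was assigned to Gata1, Hbb-b1, Alas2 or Pf4.

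Klf6, which activates inflammatory genes in macrophages, kept the peak over its start (chromosome 13, 5860801 to 5861796). Its widths were 988 bases in continuous E2, 980, 818, 630 and 829 bases in the add-back lists and 628 bases at 120 h. Both of its distal regions appeared in a single list. That 26713 bases downstream of the start, past the gene (5888202 to 5888935), had 734 bases in continuous E2 alone. That 15552 bases upstream (5845245 to 5845937) had 693 bases after 24 h alone. The next protein-coding gene, Pitrm1, was 659187 bases from the downstream region and 702185 bases from the upstream one.

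Klf7, the closest relative of Klf6, had no region at 120 h, and nor did Klf1. The region next to its start began 36 bases upstream of it (chromosome 1, 64121425 to 64122471) and was called in the add-back lists alone, with 1047, 811, 943 and 925 bases after 24, 40, 56 and 72 h. In continuous E2 the nearest peak was 42171 bases away, inside the gene. This pattern of all 4 add-back lists and neither end point held for 110 assigned regions, or 0.743%. The region inside the gene, 42136 bases downstream of the start (64078502 to 64079253), was called with 752 bases in continuous E2, 617 bases after 40 h and 485 bases after 72 h, but not after 24, 56 or 120 h. Neither region followed the order of withdrawal.

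Klf3, a repressor that works through CtBP and acts in red cell and B cell development, kept its start (chromosome 5, 64802870 to 64804042). The widths there were 1150 bases in continuous E2, 1173, 1015, 818 and 800 bases in the add-back lists and 856 bases at 120 h. This region also overlapped the predicted gene Gm38457. Both other regions were lost. That inside the gene, 8379 bases downstream of the start (64811900 to 64813295), was one of the wider lost regions, with 1396 bases in continuous E2, 833 bases after 24 h and 1038 bases after 40 h, and was not called after 56, 72 or 120 h. That 31775 bases past the end of the gene (64864676 to 64865353) had 678 bases in continuous E2 alone. It was the most distant region assigned to a member, and the nearest one left out by the limit of 50000 bases lay 53142 bases from Klf4.

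Klf9, a hormone-responsive repressor, kept its start (chromosome 19, 23140474 to 23141769) with 1188 bases in continuous E2, 1205, 1018, 915 and 827 bases in the add-back lists and 1052 bases at 120 h. The region inside the gene, 9749 bases downstream (23150975 to 23152056), had 1082 bases in continuous E2 alone. A wide region 5156 bases upstream (23134242 to 23136070) was called only after 40 h, with 1829 bases, and after 72 h, with 1350 bases. Klf9 was the only member on a chromosome with repeated entries. The files held 16, 8, 8, 3, 6 and 3 rows over its regions in order of withdrawal, of which 5, 2, 5, 3, 5 and 2 were distinct, and 1 to 12 intervals per list that spanned the gene and were too long to be peaks. Widths at Klf9 come from merged rows, and no other member had a repeated row.

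Klf10 and Klf11, repressors induced by TGF-beta, had kept regions alone. Klf11 had the widest kept region (chromosome 12, 24650868 to 24652361, over its start), with 1494 bases in continuous E2, 1306, 1262, 1208 and 1167 bases in the add-back lists and 1147 bases at 120 h. It narrowed at each step. Klf10 had a region at the upper edge of the gene (chromosome 15, 38300641 to 38301623) with 955 bases in continuous E2, 778, 719, 695 and 686 bases in the add-back lists and 667 bases at 120 h. The other lay inside the gene, 781 bases from that edge (38298945 to 38299930), with 787 bases in continuous E2, 973, 836, 691 and 702 bases in the add-back lists and 654 bases at 120 h. No region at either gene was lost or gained.

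Klf13, a repressor known in T cells as a regulator of the chemokine gene Ccl5, had the most regions, 4. The widest KLF region lay over its start (chromosome 7, 63937318 to 63939852) with 2535 bases in the 24 h list, 2258 bases in the 56 h list and 1442 bases, in 2 peaks, in the 72 h list. It was not called in continuous E2, after 40 h or at 120 h, and in continuous E2 the nearest peak was 11382 bases away. This combination of lists was found for 44 assigned regions, or 0.297%. Both lost regions were called in continuous E2 and after 24 h only. That 26199 bases downstream of the start (63911014 to 63912716) had 1673 and 1701 bases, and that 12980 bases downstream (63925398 to 63925935) had 538 and 443 bases. The remaining region, 41424 bases downstream (63896754 to 63897491), was the only kept region away from a gene boundary, with 729 bases in continuous E2, 661, 558, 536 and 525 bases in the add-back lists and 581 bases at 120 h.

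**Figure D2:**
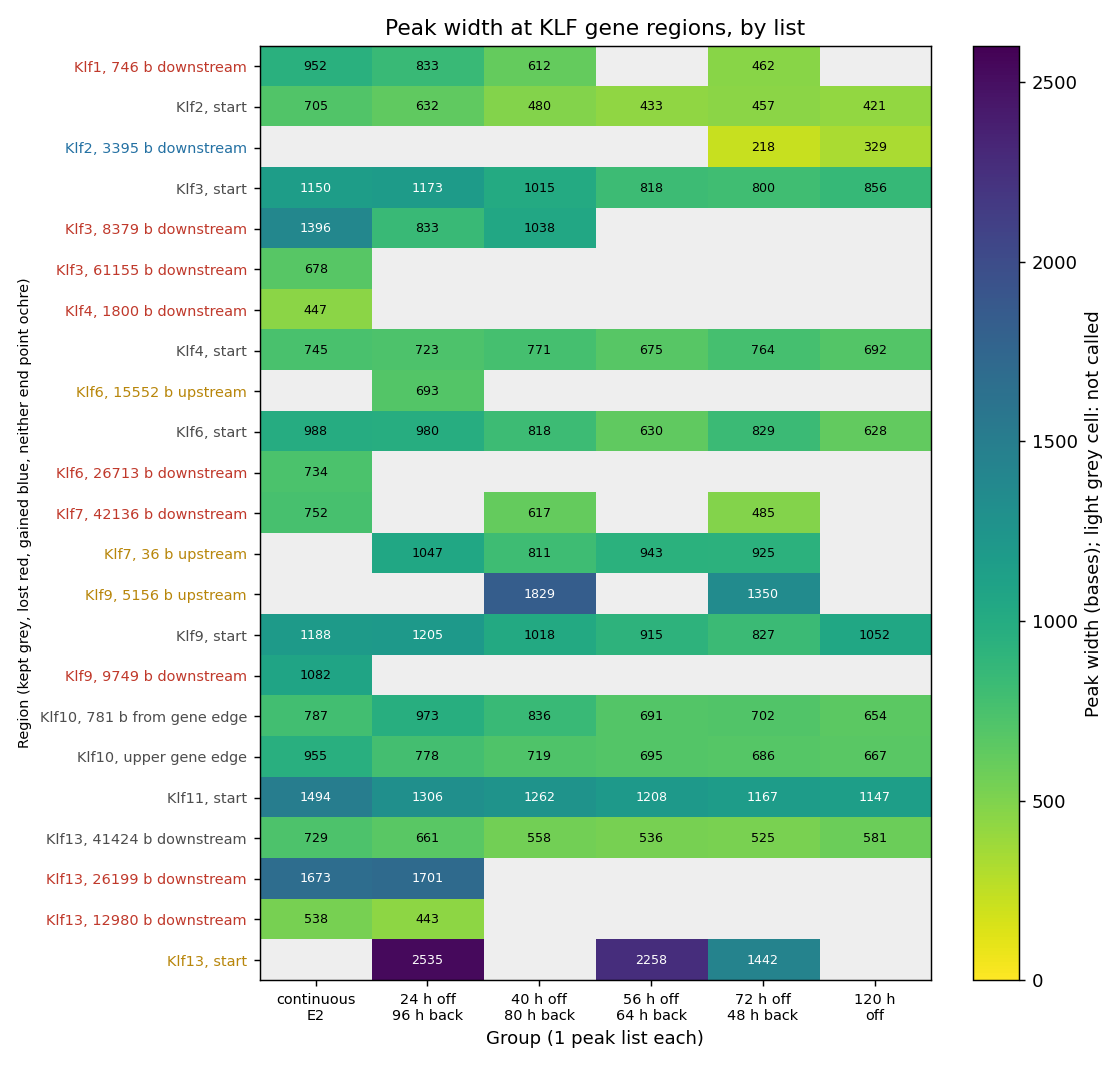
Width in bases of the peak at each of the 23 KLF regions (rows, with the distance from the annotated start) in each of the 6 lists (columns, continuous E2, the 4 add-back groups and 120 h). Light grey cells were not called, and label colours give the class. Start regions of Klf2, Klf3, Klf4, Klf6, Klf9 and Klf11 fill all columns, most lost regions are filled on the left alone, and the start regions of Klf7 and Klf13 appear in add-back lists alone.

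Of the 9 members with an annotated start, 7 had a region over it, and for 6 of these it was called in every list. The exception was Klf13. By these starts Klf1 and Klf7 had none. The annotated start of Klf7 (64121389) lies inside its gene record. The upper edge of that record (64122345) was covered by the region called in add-back lists alone. Over all genes, 53.6% of the 6671 regions that held a start of their gene were called in every list, and 6.04% were called at neither end point.

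The add-back lists were taken after 48 to 96 h of restored E2. All 9 kept KLF regions were called in each of the 4 add-back lists, where 93.1%, 92.1%, 91.6% and 94.8% of all kept regions were. Among the 9 lost KLF regions, the numbers called in order of withdrawal were 4, 3, 0 and 2. Over all lost regions the shares were 63.6%, 43.8%, 28.1% and 28.5%. Those called after 24 h were the region of Klf1, the inner region of Klf3 and both lost regions of Klf13. At 40 h the inner region of Klf7 was called and those of Klf13 were not. At 72 h the regions of Klf1 and Klf7 were called again, although neither was called after 56 h.

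Continuous E2 was the only list with a peak for 4 of the 9 lost regions, 1 each at Klf3, Klf4, Klf6 and Klf9, against 28.8% of all lost regions. A single switch from called to not called along the order of withdrawal was seen in 7 of the 9, against 83.5% of all lost regions, and the exceptions were Klf1 and Klf7. The cells were not profiled here at the moment E2 came back, so regions that never closed and regions that reopened cannot be told apart.

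Counted over the whole family, 18 of the 23 regions were called in continuous E2, then 16, 14, 11 and 15 in the add-back lists and 10 at 120 h. The corresponding shares of all assigned regions were 82.6%, 72.5%, 63.6%, 57.8%, 61.6% and 51.4%. At gene boundaries, 9 of the 12 were called in continuous E2, 11, 10, 10 and 12 in the add-back lists and 9 at 120 h. All boundary regions were called in 86.9%, 84.1%, 81.3%, 79.0%, 81.7% and 68.0%. Away from boundaries, 9 of the 11 were called in continuous E2, 5, 4, 1 and 3 in the add-back lists and 1 at 120 h. All regions away from boundaries were called in 77.5%, 59.2%, 43.3%, 33.3%, 38.6% and 32.3%, and the KLF shares were lower from 24 h on, a difference that was not tested. In each list the median width of the called KLF regions lay above that of all peaks, from 869.5 against 839 bases in continuous E2 to 660.5 against 581 bases at 120 h.

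**Figure D3:**
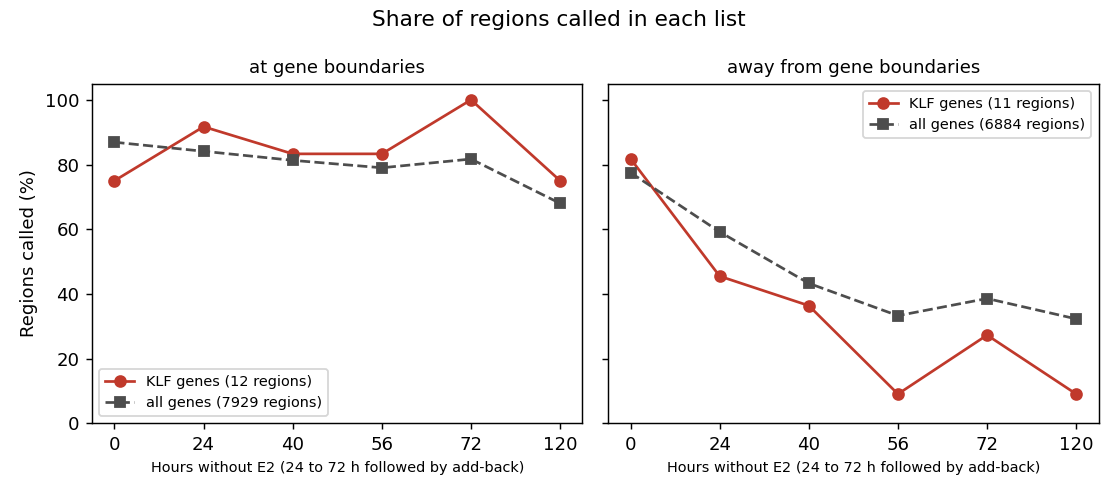
Percent of regions called in each list, by hours without E2 (the middle 4 were followed by add-back), at gene boundaries (left) and away from them (right), for KLF genes (red) and all genes (grey). At boundaries the KLF shares lie between 75.0% and 100.0%, while away from boundaries they go from 81.8% in continuous E2 to 9.09% at 120 h, next to 77.5% and 32.3% for all genes.

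By partner group, the activator genes Klf1, Klf2, Klf4, Klf6 and Klf7 had 10 regions, of which 7 were called in continuous E2 and 4 at 120 h. The genes of Sin3a partners had 10 as well, with 8 called in continuous E2 and 5 at 120 h. Klf3, the only CtBP partner among the members, had 3 regions and then 1. Of all assigned regions, 82.6% were called in continuous E2 and 51.4% at 120 h, and no difference between the groups was tested.

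Peaks narrowed where they were kept. All 9 kept KLF regions were narrower at 120 h than in continuous E2, as were 97.2% of all kept regions. Their width at 120 h was 59.7% to 92.9% of that in continuous E2, with a median of 76.8%, and the median over all 6274 kept regions was 66.4%. The start regions of Klf2 and Klf6 narrowed most, to 59.7% and 63.6%, and those of Klf4 and Klf9 least, to 92.9% and 88.6%. Lost KLF regions had a median width of 752 bases in continuous E2 and kept ones 955 bases, next to 734 and 943 bases over all lost and kept regions. Width depends on the calling as well as on accessibility, and its part in the losses was not tested.

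**Figure D4:**
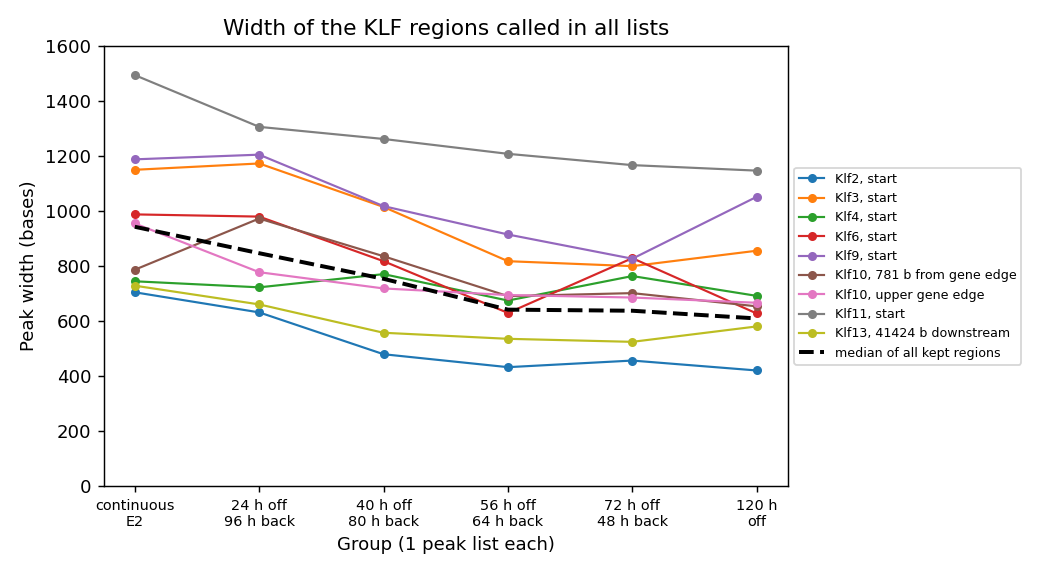
Peak width in bases of the 9 KLF regions called in all lists, by list, with 1 line per region, and the median of all kept regions as a dashed line. The Klf11 start is the widest throughout (1494 to 1147 bases) and the Klf2 start the narrowest (705 to 421 bases), and all end narrower at 120 h than in continuous E2.

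For genes with 3 or more regions, those with the same number of regions called in each list were looked up. The counts of Klf3 (3, 2, 2, 1, 1 and 1 in order of withdrawal) were matched by 13 genes, the first by name being Abcc1, Amz2, Car7, Ddx3x and Efl1. Those of Klf6 (2, 2, 1, 1, 1 and 1) were matched by 8, beginning with Ano6, Cldn14, Fabp12, Hk1 and Klrb1c. No gene matched Klf9 or Klf13.

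Other genes of the family and its pathway were described by lists. Of 16 further KLF and SP genes, 6 had a region, next to 10499 of all 21900 protein-coding genes. The 11 regions of these 6 genes were 3 lost, 1 gained, 5 kept and 2 at neither end point. All assigned regions were 40.2% lost, 9.04% gained, 42.4% kept and 8.4% at neither end point, as above. The lost ones were at Klf8, a CtBP partner related to Klf3, with 2 regions called in continuous E2 and after 24 h alone, and at Sp4 with 1. Sp1 had 2 kept regions, Sp2 had 1 kept and 1 at neither end point, and Klf16 had its gained boundary region after 72 h and at 120 h, the same lists as the gained region of Klf2. No region was assigned to Klf5, Klf12, Klf14, Klf15 or Klf17.

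Of 13 genes of KLF cofactors, 12 had a region, next to 10499 of all 21900 protein-coding genes. The 15 cofactor regions were 6 lost, 3 gained and 6 kept, next to 40.2%, 9.04% and 42.4% of all assigned regions. The gained ones lay at Ctbp1, a corepressor of the CtBP family, at Crebbp, an acetyltransferase that coactivates Klf1, and at Sin3a, the corepressor of Klf9 and its relatives, which also had 1 lost region. The other lost regions lay at Ctbp2 and Ep300, paralogues of Ctbp1 and Crebbp, at Kat2b, another acetyltransferase gene, and at Fhl3, a partner of Klf3, which had 2 lost and 1 kept. All 3 gained regions were called from 24 or 40 h on, although that of Ctbp1 was not called after 56 h.

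Of 20 genes known as targets of KLF proteins, 11 had a region, next to 10499 of all 21900 protein-coding genes. The 17 target regions were 8 lost, 2 gained, 2 kept and 5 at neither end point. The lost share was 47.1%. All assigned regions were 40.2% lost, 9.04% gained, 42.4% kept and 8.4% at neither end point. Only 6 of the 17 were boundary regions, and away from boundaries 57.0% of all regions were lost. Whether the target genes differ from other genes was not tested. S1pr1, a lymphocyte egress receptor and target of Klf2, had 6 regions, of which 1 was lost, 2 were gained and 3 were at neither end point. Its boundary region was called after 24 and 40 h alone. Smad7, an inhibitor of TGF-beta signalling, had 1 lost and 1 kept region, Bcl11a, a globin repressor activated by Klf1, had 1 lost, and Cdkn1a, a cell cycle inhibitor induced by Klf4, had 1 kept.

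The labelled cell type was looked at through marker genes. Of 11 myeloid progenitor markers, 10 had a region, next to 10499 of all 21900 protein-coding genes. Of the 23 myeloid marker regions, 18 were called in continuous E2 and 7 at 120 h, next to 82.6% and 51.4% of all assigned regions. Of the 23, 15 were lost, 4 gained, 3 kept and 1 at neither end point, next to 40.2%, 9.04%, 42.4% and 8.4% of all assigned regions. Only 6 of the 23 were boundary regions, and away from boundaries 57.0% of all regions were lost and 20.6% kept. Lymphoid markers had 5 regions at 2 of 6 genes, 4 lost and 1 kept, and stromal and endothelial markers 4 at 2 of 4 genes, all 4 lost. The lost regions of both lists lay away from gene boundaries, where 57.0% of all regions were lost. An accessible region near a gene does not show that the gene is expressed, and RNA was not analysed here.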

How the data were processed

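ATAC-seq peaks of 12 libraries in 6 groups were used. Each deposited list holds chromosome, start and end of its peaks and no other value, and the labels name 1 list for both libraries of a group without saying how they were combined. The submitters' processing notes list BWA, MACS2 2.0, STAR 2.5 and the build mm9, with no role for each. Peaks were read on GRCm38, because 52.4% to 69.6% lay within 1000 bases of a GRCm38 gene start or end, against 6.03% to 6.29% after a shift of 1000000 bases. Starts were read as 0-based and are printed 1-based.

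Exact duplicates and intervals over 10000 bases were dropped, overlapping rows were merged, and the 6 lists were merged into regions. A list calls a region when 1 base or more overlaps. A region over several genes went to the one with the nearest start or end, which touched 1351 regions. Gene positions and strand come from RefSeq tables of GRCm38.p6, where 17492 of 21900 protein-coding genes have a strand. Merging, classes and gene assignment were tested on simulated data. Python 3.11.15, numpy 2.4.6 and matplotlib 3.10.9 were used.

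The planned comparisons have no test, because each group has 1 list. Every member was named and every member region described, and up to 4 genes of each other list, those with the most regions. Sp4, Ctbp2, Ep300 and Kat2b were named after their values were seen. Alternatives changed overlap, list length, peak width, assignment, merging, the longest interval, chromosomes and boundary window. The members and the lists were chosen with earlier results of these data known. A result on one gene of these lists is not reported here.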

Additional observations from a re-analysis of the deposited data

How the results depend on the processing

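The counts of 23 regions, 9 lost, 9 kept and 1 gained were recomputed under 10 alternatives. Selecting peaks by width moved them most. With all lists shortened to their widest peaks, as many as the shortest holds, 5 regions were lost and 4 gained. Keeping the wider part of each list, from its median width upwards, left 15 regions, of which 4 were lost, 5 kept and 3 gained. The gained region of Klf2 was below the median width in both of its lists and was not among these 15. Counting every region within 50000 bases of a member, even where another gene was nearer, gave 14 lost and 3 gained. Under all other alternatives each of the 4 counts stayed within 1.5 times its value, between 17 and 29 regions, 6 and 12 lost, 6 and 12 kept, and 1 gained. Regions at a gene boundary numbered 9 and 13 with windows of 500 and 2500 bases. The alternatives were counted for KLF regions alone, so it is not known whether all regions shift alike. The cause of these shifts was not tested. No paired analysis was possible because the libraries of a group share 1 list, which also means that neither could be omitted in turn. Depth is unknown, so a region not called cannot be told apart from one missed.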

Other observations

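A further 6 regions lay between 50000 and 100000 bases from a member that was the nearest protein-coding gene. Klf4 had 1 at 53142 bases, called in continuous E2 and after 24 h, and 1 at 90477 bases, called in continuous E2, after 56 and 72 h and at 120 h. Klf10 had 1 at 73035 bases, called in every list but that of 120 h, and 1 at 83645 bases, called in every list but that of 24 h. Klf7 had 1 at 67102 bases, called in continuous E2 alone, and Klf13 had 1 at 72554 bases, called in every list.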
